A study of Mus musculus with 4 samples.

Results

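The genes described here encode the collagen chains of cartilage: Col2a1 of type II collagen, Col9a1, Col9a2 and Col9a3 of type IX, Col10a1 of type X, Col11a1 and Col11a2 of type XI, and Col27a1 of type XXVII. They were chosen by name, as the genes for these 5 collagen types, and make up 8 of the 55450 genes in the count table. All 8 were detected in each of 4 libraries and passed a filter that asked for 1 TPM or more on average (reads per length of gene, scaled to a fixed sum in each library), which 13191 genes passed. The libraries were made from the 3′ ends of mRNA of cultured articular chondrocytes, the cells of joint cartilage, taken from the femoral heads of 3-week-old mice, with 1 library for each condition. In the Cart-miR-23clus KO library the miR-23a and miR-23b clusters were floxed and removed by a Col2a1-cre transgene, and it is also called the cluster knockout below; Cre was driven by the promoter of a gene described here and acts in cells with that promoter active. The miR-26a KO library carried miR-26a -/- and the miR-26a KO + mimic library had the same genotype with a transfected miR-26a mimic. The labels give the wild-type, miR-26a KO and Cart-miR-23clus KO mice as C57BL/6 and the mimic mice as C57BL6/J, and leave it unsaid if a control oligonucleotide was given to the miR-26a KO cells. The library labelled wild type may come from flox/flox mice, which the study's methods name as Control. With 1 library per condition there was no estimate of biological spread, so every comparison below is between libraries, no p-value is given, and the intervals at 95% cover counting error only, on reads that carried no molecular identifiers.

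Type II collagen is the main fibril-forming collagen of cartilage, and its fibrils hold type XI collagen inside them and type IX collagen on their surface. Type XI is built from the chains of Col11a1, Col11a2 and a product of Col2a1, and type IX from 1 chain each of Col9a1, Col9a2 and Col9a3, so levels of partner chains can be set beside each other. Type X collagen marks hypertrophic chondrocytes of the growth plate, and type XXVII is a fibrillar collagen of developing cartilage. Sox9, with Sox5 and Sox6, is the transcription factor known to drive most of these genes.

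MicroRNAs whose loss or return was compared are shown, other than miR-23b-3p, because their seeds, bases 2 to 8 in capitals, were sought in the 3′ UTRs of the collagen genes. The mature sequences are from RefSeq on GRCm38.p6. miR-26a-5p is read from chromosome 9 (119031811 to 119031832) and chromosome 10 (126995543 to 126995564), and the miR-23a cluster lies on chromosome 8, from miR-23a-3p at 84208563 to miR-24-3p at 84208896, and the miR-23b cluster on chromosome 13, where miR-27b-3p starts at 63300760 and miR-24-3p ends at 63301272.
miR-26a-5p: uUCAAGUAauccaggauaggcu
miR-23a-3p: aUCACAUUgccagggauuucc
miR-27a-3p: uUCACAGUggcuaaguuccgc
miR-27b-3p: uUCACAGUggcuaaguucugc
miR-24-3p: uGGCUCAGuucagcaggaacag
miR-27a-3p and miR-27b-3p share 1 seed. The precursor genes Mir23a, Mir23b, Mir27a, Mir26a-1 and Mir26a-2 had 0 reads in every library, including wild type, so these mRNA libraries do not check the deletions.

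The libraries held between 1336496 and 1505805 reads on genes. Markers of the labelled cell type were present: Sox9 had between 1838 and 2158 reads and Acan, the core protein of aggrecan, between 3302 and 5077, and all 15 genes of a chondrocyte matrix list were detected. Other cells were present to differing degrees. The summed level of 10 osteoblast markers was 12408 TPM in wild type, 2300 in the Cart-miR-23clus KO library, 6216 in miR-26a KO and 6984 with the mimic, and that of 10 macrophage markers 1073, 1319, 392 and 726 TPM in the same order. Over 7 fibroblast markers the sum lay between 27.7 and 40.9 TPM, on 58 to 76 reads. Over 6 skeletal muscle markers it lay between 2.96 and 10.3 TPM, on 4 to 13 reads. The sum of 5 adipocyte markers lay between 107 and 429 TPM, with the highest value in Cart-miR-23clus KO. Most of that value was Fabp4 at 262 TPM and Lpl at 159 TPM, while Adipoq had 9 reads there, Plin1 1 and Cidec 0. Of 6 endothelial markers at least 4 were at 0 reads in each library, and the 4 erythroid markers listed were at 0 in all. The part of any such cells in the collagen values below was not tested, and in bulk RNA fewer chondrocytes and less collagen RNA per chondrocyte cannot be told apart.

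Col2a1 was the highest of the chains and Col10a1 the lowest in every library. Together the 8 genes held 3.14% of reads in wild type, 2.41% in the Cart-miR-23clus KO library, 2.40% in miR-26a KO and 2.46% with the mimic, so wild type stood above the other 3, which lay close to each other. Col2a1 alone made up between 75.9% and 78.8% of the chains' reads. As a scale, Col1a1, the main chain of type I collagen of bone and fibrous tissue, held 2.60% of wild-type reads, more than the 2.38% of Col2a1, but 0.552% against 1.88% in Cart-miR-23clus KO.

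**Figure D1:**
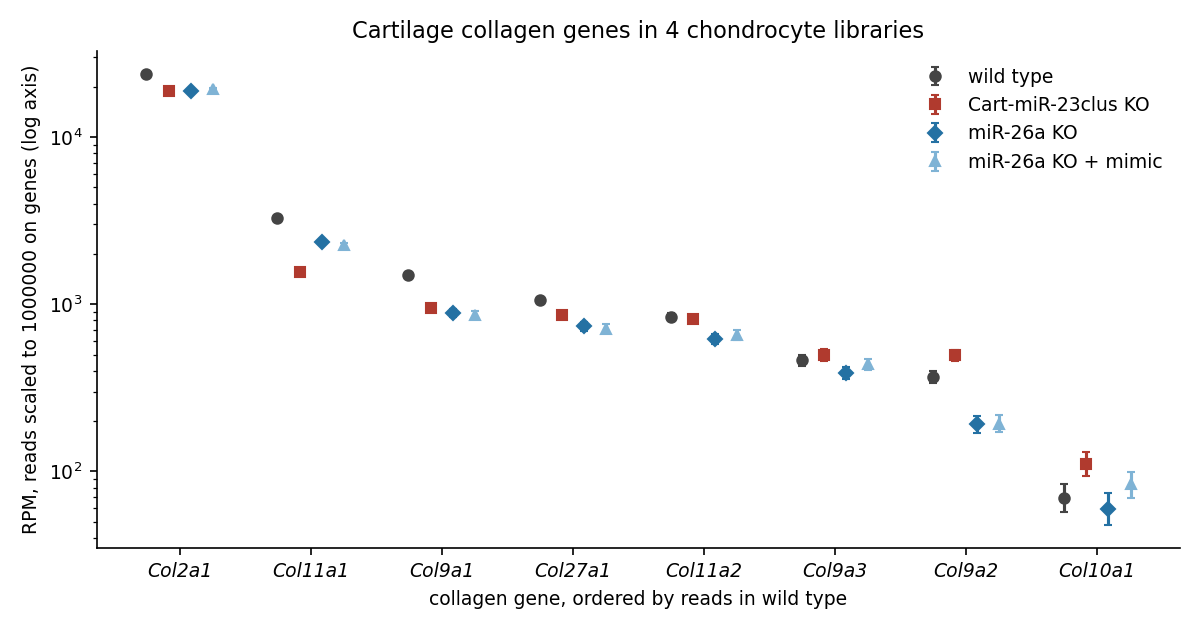
RPM (reads scaled to 1000000 on genes per library) of each collagen gene on a log axis, with 1 point for each of the 4 libraries and bars for the exact Poisson 95% interval; genes are ordered by reads in wild type. Wild type is the highest point for Col2a1, Col11a1, Col9a1, Col27a1 and Col11a2, and Cart-miR-23clus KO for Col9a3, Col9a2 and Col10a1.

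By deposited TPM, a level per length, the wild-type order was Col2a1 at 7062, Col11a1 at 2293, Col9a1 at 561, Col27a1 at 333, Col9a3 at 219, Col11a2 at 201, Col9a2 at 181 and Col10a1 at 32.1. The gap between Col9a3, on 698 reads, and Col11a2, on 1269 reads, turned with the scale, since Col11a2 was ahead in reads. Col11a1 was second on every scale, but the size of its lead in TPM rested on the length used. The deposited value implies a gene length of 2064 bases, that of the short transcript Col11a1-202, while the longest annotated coding transcript has 7667 bases, on which the wild-type level would be 617 TPM, next to Col9a1. Col27a1 was likewise divided by 4580 bases in place of 7612, and would stand at 200 TPM, level with Col11a2. For Col9a1, Col9a2, Col9a3, Col10a1 and Col11a2 the implied length was that of the longest coding transcript. Reads of 3′ ends do not scale with length, so neither set of TPM values settles the levels. In wild-type reads Col11a1 had 4944 and Col9a1 2247. The length is the same in every library and cancels in the ratio of a gene between libraries.

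**Figure D2:**
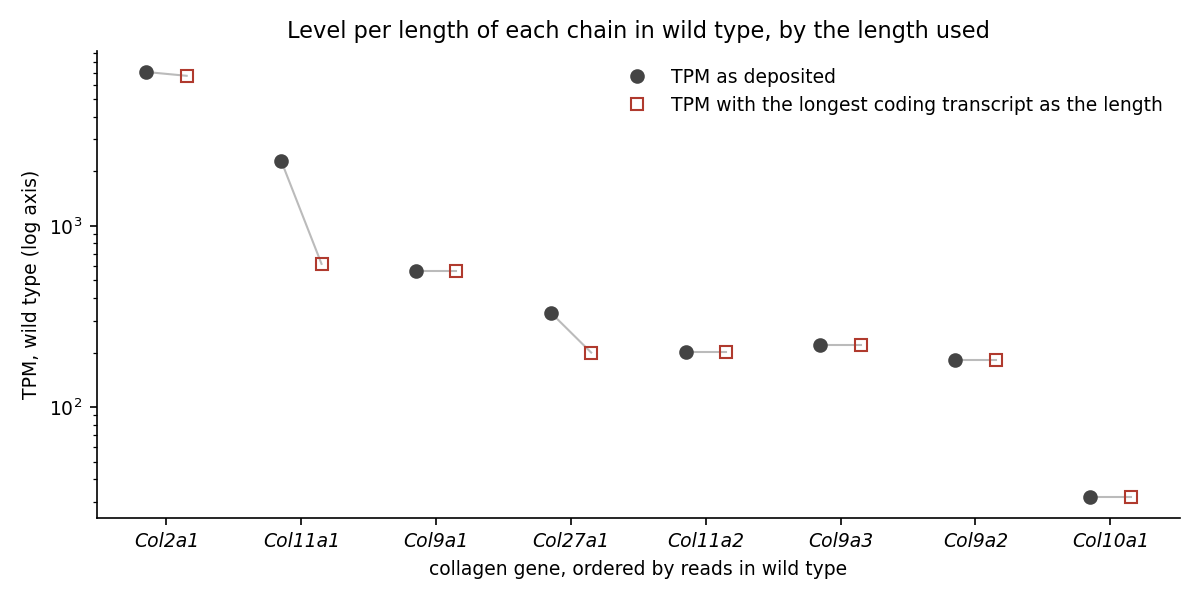
Level of each chain in wild type in TPM on a log axis, as deposited (filled circles) and with the length of the longest coding transcript in place of the implied one (open squares). Col11a1 moves from 2293 to 617 TPM and Col27a1 from 333 to 200 TPM, while Col2a1 moves from 7062 to 6727 and the others stay in place.

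In Cart-miR-23clus KO the chains did not move together: Col11a1, Col9a1, Col2a1 and Col27a1 were lower than in wild type, Col10a1 and Col9a2 were higher, and the intervals of Col9a3 and Col11a2 included 1. Their median log2 ratio was -0.20, beside 0 over all genes tested, where the middle 50% of genes lay between -0.38 and 0.38. Col11a1 was the only chain past 2-fold, below 0.5, where 9.37% of all genes tested lay, and 0 of 8 chains were above 2, where 10.9% of all genes lay. These shares include many genes with few reads. Where both libraries held 20 reads or more of a gene, as for all 8 chains, 2.06% of genes were above 2 and 1.47% below 0.5. The median depended on the reference, being 0.26 when the miR-26a KO library stood in for wild type, while Col11a1 was still lower, at 0.648 (0.613 to 0.685).

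The type XI chains parted from each other. Col11a1 had 4944 reads in wild type, 2094 in the Cart-miR-23clus KO library, 3238 in miR-26a KO and 3268 with the mimic. The Cart-miR-23clus KO value was the lowest, and its ratio to wild type was 0.466 (0.443 to 0.491), with 6.85% of genes tested lower still. Its partner Col11a2 had 1269, 1090, 851 and 950 reads in the same order, with a ratio to wild type of 0.946 (0.871 to 1.03) in Cart-miR-23clus KO.

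Col2a1, the fibril's main chain, had 35871 reads in wild type, 25154 in the Cart-miR-23clus KO library, 25740 in miR-26a KO and 28039 with the mimic. Its ratio in Cart-miR-23clus KO was 0.772 (0.760 to 0.785), narrow because of its many reads, yet 25.4% of genes tested lay lower. Col27a1 had 1591, 1154, 1013 and 1037 reads in this order and a ratio of 0.799 (0.740 to 0.862). Both chains were highest in wild type. Col2a1 differed little among the other 3 libraries, while Col27a1 in Cart-miR-23clus KO was 1.14 times (1.05 to 1.24) its miR-26a KO level and 1.19 times its mimic level, with an interval above 1.

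Within type IX the 3 chains went different ways. Col9a1, the chain that reaches out from the fibril surface, had 2247 reads in wild type, 1266 in the Cart-miR-23clus KO library, 1216 in miR-26a KO and 1253 with the mimic, and a ratio in Cart-miR-23clus KO of 0.620 (0.579 to 0.665). Col9a2 had 554, 663, 262 and 280 reads and a ratio of 1.32 (1.18 to 1.48). Col9a3 had 698, 664, 533 and 632 reads and a ratio of 1.05 (0.940 to 1.17). Col9a2 and Col9a3 were both lower in the miR-26a KO libraries than in the rest, by more for Col9a2, whose Cart-miR-23clus KO level was 2.54 times (2.20 to 2.94) that of miR-26a KO, beside 1.25 times (1.11 to 1.40) for Col9a3.

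Col10a1 rested on few reads, 105 in wild type, 148 in the Cart-miR-23clus KO library, 82 in miR-26a KO and 121 with the mimic. Its ratio in Cart-miR-23clus KO was 1.55 (1.20 to 2.01), higher than 84.0% of genes tested. The other genes of hypertrophic cartilage did not share that direction: of 10 tested, 1 was above 2-fold (10.9% of all genes) and 6 below 0.5 (9.37% of all genes), with a median log2 ratio of -1.88. Ihh, the signal of prehypertrophic cells, had 24 wild-type reads and 1 in the Cart-miR-23clus KO library, and Pth1r, the receptor that holds back hypertrophy, a ratio of 0.271 (0.242 to 0.302). Ibsp at 0.166 and Alpl at 0.192 were lower too, and are also osteoblast markers, of which 8 of 8 tested were below 0.5. The 1 above was Spp1, osteopontin, at 1613 TPM beside 773 in wild type and named after its values were seen. In miR-26a KO 3 of the 10, Ihh, Pth1r and Mef2c, were below 0.5 (8.81% of all genes) and 0 above (9.57%), with a median log2 ratio of -0.69. For the mimic 0 were above (6.63%) or below (7.84%).

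**Figure D3:**
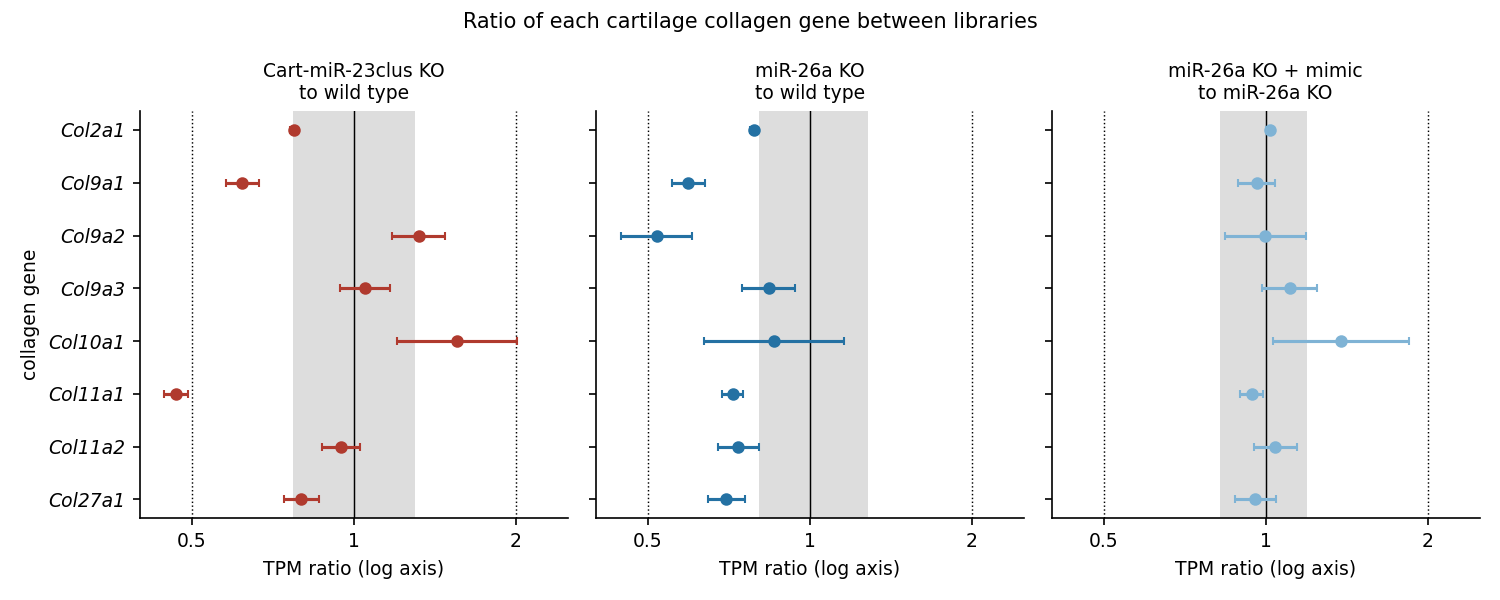
TPM ratio of each chain on a log axis in the 3 comparisons, with 95% intervals for counting error; the grey band spans the middle 50% of all genes tested and dotted lines mark 0.5 and 2. Col11a1 at 0.466 lies below the dotted line in Cart-miR-23clus KO, all 8 points lie left of 1 in miR-26a KO, and 7 of the points lie within the band for the mimic, with Col10a1 to its right.

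In miR-26a KO all 8 chains were lower than in wild type, by modest amounts. The median log2 ratio was -0.46, beside 0.03 over all genes tested, of which 6130 of 13191 were lower. No chain was past 2-fold: 0 of 8 were above 2, beside 9.57% of all genes, and 0 were below 0.5, beside 8.81%, or 1.59% and 0.811% of genes with at least 20 reads in both libraries. Beside this, 7 of 9 macrophage markers and 3 of 8 osteoblast markers tested were below 0.5, and their part in the lower collagen levels was not tested. This comparison uses the same wild-type library as the one before, so a high wild-type value would lower both.

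Col9a2 was the lowest at 0.519 (0.447 to 0.603), followed by Col9a1 at 0.594 (0.554 to 0.638) and Col27a1 at 0.699 (0.646 to 0.757). Col11a1 at 0.719 (0.688 to 0.752) and Col11a2 at 0.736 (0.674 to 0.804) were lowered by like amounts, unlike in Cart-miR-23clus KO. Col2a1 stood at 0.788 (0.776 to 0.801) and Col9a3 at 0.839 (0.748 to 0.940). The interval of Col10a1, 0.858 (0.635 to 1.16), included 1. Sox9 did not move with them, at 0.994 (0.934 to 1.06), while Acan, at 0.714 (0.683 to 0.746), lay among the chains.

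The mimic left the chains close to their miR-26a KO levels. The median log2 ratio of the mimic to the miR-26a KO library was 0.01, beside -0.01 over all genes tested, with 4 chains higher and 4 lower, beside 6251 and 6770 of all genes tested. Past 2-fold there were 0 of 8 above, beside 6.63% of all genes, and 0 of 8 below, beside 7.84%, or 0.197% and 0.183% of genes with at least 20 reads in both. Of the 9 macrophage markers 4 were above 2-fold here. The miR-26a KO library is shared with the comparison before, so here too its own error enters both.

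Col10a1 had the largest ratio, 1.38 (1.03 to 1.85), on 121 and 82 reads. Col2a1 was 1.02 (1.00 to 1.04) and Col11a1 0.943 (0.898 to 0.990), both within 10% of 1. Col9a1 at 0.963, Col9a2 at 0.999, Col9a3 at 1.11, Col11a2 at 1.04 and Col27a1 at 0.956 all had intervals that included 1. Set against wild type, the mimic library stayed at 0.519 (0.448 to 0.600) for Col9a2, 0.572 (0.534 to 0.613) for Col9a1 and 0.802 (0.790 to 0.815) for Col2a1. Col11a1 at 0.678, Col11a2 at 0.768 and Col27a1 at 0.669 also had intervals below 1, while those of Col9a3, at 0.929 (0.833 to 1.04), and Col10a1, at 1.18 (0.903 to 1.55), included 1.

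Ratios of reads between chains within 1 library do not depend on how libraries are scaled. Col11a1 had 3.90 reads for each read of Col11a2 in wild type, 3.80 in miR-26a KO and 3.44 with the mimic, but 1.92 (1.78 to 2.07) in Cart-miR-23clus KO, so the balance there was 0.493 times (0.448 to 0.543) that of wild type. Col9a1 to Col9a2 gave the same split, at 4.06, 4.64 and 4.48 against 1.91 (1.74 to 2.10) in Cart-miR-23clus KO. Col9a1 to Col9a3 had another pattern, with wild type at 3.22 (2.96 to 3.51) above the other 3 libraries, which lay between 1.91 and 2.28. Col9a3 to Col9a2 was 1.26 in wild type, 1.00 in the cluster knockout and higher in the miR-26a KO libraries, at 2.03 and 2.26.

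Against the main fibril chain, Col2a1 had 7.26 reads for each read of Col11a1 in wild type, 7.95 in miR-26a KO, 8.58 with the mimic and 12.0 (11.5 to 12.6) in Cart-miR-23clus KO. Col2a1 to Col10a1 was 342 (282 to 418) in wild type, 314 (253 to 395) in miR-26a KO, 232 (194 to 279) with the mimic and 170 (145 to 201) in the cluster knockout. The intervals of the last pair overlapped each other, and neither overlapped that of wild type. Col2a1 to Col1a1 was 0.915 in wild type and 3.41 in the Cart-miR-23clus KO library, with 1.70 in miR-26a KO and 1.45 with the mimic between them. The osteoblast marker sums had the reverse order, which is partly built in, since Col1a1 is in the sums and is the divisor here. All the ratios between chains are of RNA reads, so they show a shift between libraries and do not count the chains of each kind.

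**Figure D4:**
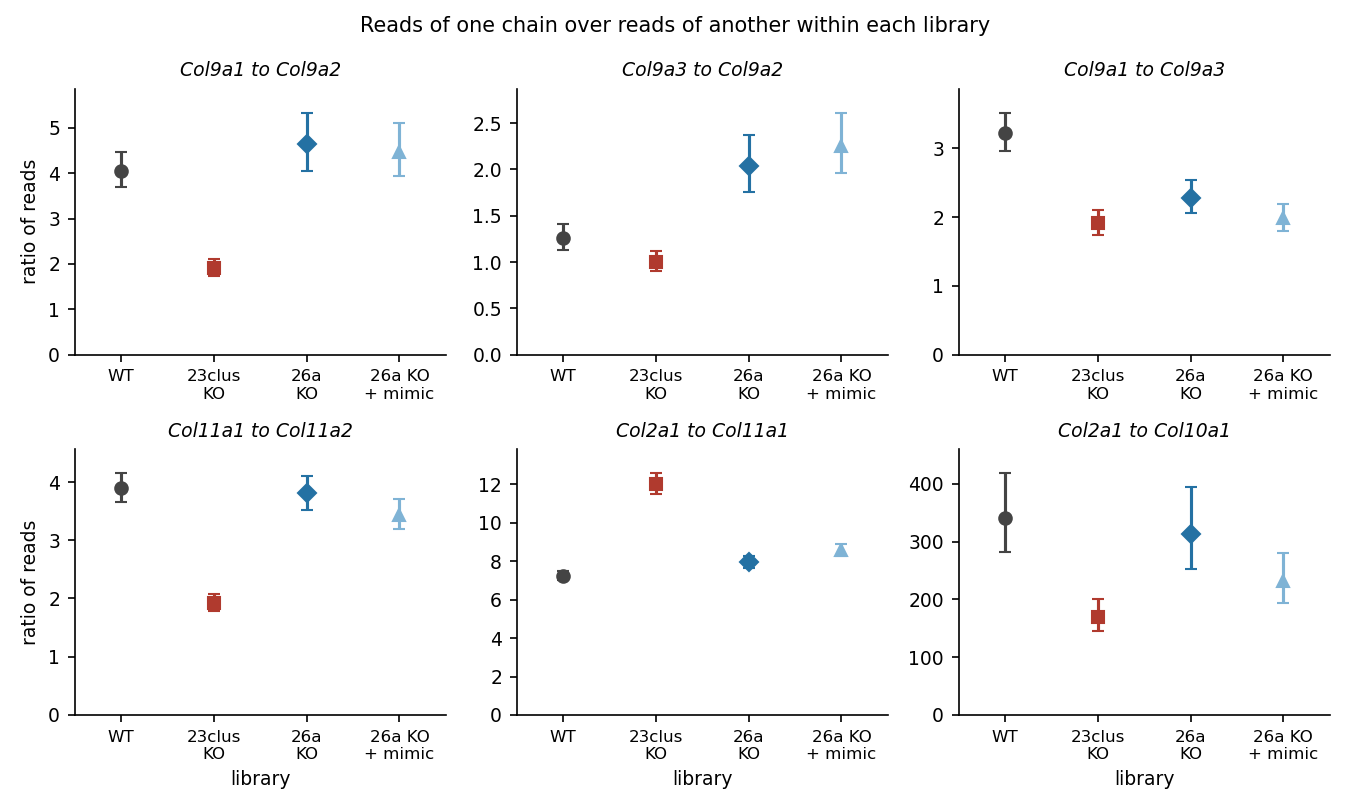
Reads of one chain divided by reads of another in wild type (WT), Cart-miR-23clus KO (23clus KO), miR-26a KO (26a KO) and the mimic library, each axis from 0, with 95% intervals for counting error. Cart-miR-23clus KO stands apart from the other 3 libraries for Col9a1 to Col9a2, Col11a1 to Col11a2 and Col2a1 to Col11a1, and wild type for Col9a1 to Col9a3.

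The regulators of these genes varied little at the top and more below. Sox9 had a ratio of 0.938 (0.881 to 0.998) in Cart-miR-23clus KO and 0.932 (0.875 to 0.993) for the mimic. Sox5 and Sox6 rested on 61 and 212 reads in wild type, with ratios of 1.21 (0.842 to 1.74) and 0.898 (0.731 to 1.10) in Cart-miR-23clus KO, both intervals including 1. In miR-26a KO Sox5 was at 1.28 (0.895 to 1.83) and Sox6 at 0.756 (0.608 to 0.938), the latter interval lying below 1 as for most chains. Of 13 regulators tested in Cart-miR-23clus KO, 1 was above 2-fold, beside 10.9% of all genes, and 4 were below 0.5, beside 9.37%; Mef2c at 0.266, Sp7, the osteoblast factor, at 0.335 and Runx3 at 0.414 were among the lower, and Foxa2 had 8 reads in wild type and 1 there. The single one above, Arid5b, a Sox9 partner named after its values were seen, stood at 23.5 TPM beside 11.2 in wild type. In miR-26a KO the 1 above (9.57% of all genes) was Dlx5, at 2.01 (0.954 to 4.46), and the 3 below (8.81%) were Mef2c, at 0.472, Foxa2 and Foxa3, the last on 8 and 5 wild-type reads. For the mimic 0 were above (6.63%) and 1 was below (7.84%), Foxa2 on 1 and 3 reads. Foxa2 and Foxa3 too were named after their values were seen.

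Other matrix genes of cartilage had a median log2 ratio of -0.16 for the cluster knockout, -0.49 for miR-26a KO and 0.05 for the mimic over 15 tested, with 3, 3 and 0 above 2-fold, beside 10.9%, 9.57% and 6.63% of all genes, and 2 below 0.5 each time, beside 9.37%, 8.81% and 7.84%. Prg4, Matn1 and Ucma each had at least 20 reads in both libraries, where the shares of all genes were 2.06% above and 1.47% below for the cluster knockout and 1.59% and 0.811% for miR-26a KO. Matn1, a matrilin of hyaline cartilage, stood at 0.402 in the Cart-miR-23clus KO library, 0.350 in miR-26a KO and 0.487 for the mimic against miR-26a KO, lower each time. Prg4, the surface lubricant, went the other way, at 2.16 for the cluster knockout and 3.36 for miR-26a KO. Chad, a cell-binding matrix protein, was also higher, at 2.75 and 6.18, though from 16 reads in wild type. Ucma, of the upper growth plate, was at 3631 TPM in wild type, 1448 in the cluster knockout, 1562 in miR-26a KO and 1101 with the mimic, and Cilp, an intermediate-layer protein, had 3 reads in wild type, 7 in the cluster knockout, 26 in miR-26a KO and 13 with the mimic.

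Fibrous collagens, of which 10 were tested, had 4 below 0.5 in Cart-miR-23clus KO, beside 9.37% of all genes, and a median log2 ratio of -0.86, with 7 lower and 3 higher. In miR-26a KO 1 was below 0.5, beside 8.81%, and the median was -0.02. The 3 higher in the cluster knockout were Col6a1, Col6a2 and Col6a3 of type VI collagen, named after their values were seen, with Col6a1 at 118 TPM beside 73.3 in wild type. Col1a1 was at 0.207 (0.202 to 0.212) and Col1a2 at 0.417 (0.405 to 0.428) in the cluster knockout, and Col1a1 at 0.425 (0.417 to 0.433) in miR-26a KO. In the cluster knockout both were further from 1 than Col2a1, and Col5a3, on 3 and 22 reads, and Col12a1, at 62.6 TPM beside 130.9 in wild type and named after its values were seen, made up the rest of the 4. For the mimic 0 of 10 were above 2-fold (6.63% of all genes) or below 0.5 (7.84%).

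A list of genes for making and crosslinking collagen was also examined, not all of them enzymes. Of 23 tested, 1 was above 2-fold (10.9% of all genes) and 2 below 0.5 (9.37%) for the cluster knockout. For miR-26a KO 1 was above (9.57%) and 0 below (8.81%), and for the mimic 0 were above (6.63%) or below (7.84%). All 3 genes called in the cluster knockout had at least 20 reads in both libraries, where 2.06% of genes were above and 1.47% below. Lox, which starts crosslinks between collagen molecules, was the one above in both knockout libraries, with 1211 reads in wild type, 4416 in the Cart-miR-23clus KO library, 4198 in miR-26a KO and 3620 with the mimic, or ratios of 4.01 (3.77 to 4.28) and 3.81 (3.57 to 4.06). Adamts2 at 0.224 and Bmp1 at 0.475, which trim the ends of procollagen, were the lower ones in Cart-miR-23clus KO, on 21 and 22 reads there. Of 7 collagen receptors, 1 was above and 1 below in Cart-miR-23clus KO, beside 10.9% and 9.37% of all genes, the latter Itga11 at 0.446. The former was Itga2, named after its values were seen, with 2 reads in wild type and 15 in the cluster knockout. In miR-26a KO it had 14 reads and was the 1 above (9.57% of all genes), with 0 below (8.81%). Of 5 genes of collagen degradation tested, 0 were past 2-fold in any of the 3 comparisons, beside shares of 6.63% to 10.9% of all genes in a direction.

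Matches to the seeds were sought in the longest annotated 3′ UTR of each chain, as the letters TACTTGA for miR-26a, AATGTGA for miR-23, ACTGTGA for miR-27 and CTGAGCC for miR-24, on the transcribed strand only, and no match overlapped another. The UTRs had between 438 bases in Col2a1 and 1891 in Col11a1, beside a median of 1199 over all genes tested. A miR-26a match was found in 3 of 8 chains, Col9a1, Col10a1 and Col11a1, and in 11.7% of 11176 genes. A miR-23 match was found in Col10a1 and Col11a2 (16.8% of genes), a miR-27 match in Col11a1 and Col27a1 (17.4%), and a miR-24 match in Col11a2 (19.1%), while none of the 4 was found in Col2a1, Col9a2 or Col9a3. Printed are the miR-26a matches, since the mimic carries this seed, and 1 match each of Col10a1 and Col11a1, the chains with the highest and lowest ratio in Cart-miR-23clus KO. Capitals mark the 7 bases paired with the seed, all on the + strand of GRCm38, at chr1:24251974-24252002, chr10:34396507-34396535, chr3:114220383-114220411, chr10:34396166-34396194 and chr3:114219278-114219306 in this order.
Col9a1, miR-26a: tacataagtgcTACTTGAcaatcagattt
Col10a1, miR-26a: tattctttaaaTACTTGAatattcaaatt
Col11a1, miR-26a: tttgattgtcaTACTTGAccatccagaga
Col10a1, miR-23: aggctaaaagtAATGTGAacaacttacac
Col11a1, miR-27: gacaattgtggACTGTGAcggcaataaat
Both Col10a1 matches are followed by an A, which the other 3 are not. The chains with a miR-26a match had ratios of 0.594 (Col9a1), 0.858 (Col10a1) and 0.719 (Col11a1) in miR-26a KO, inside the range of 0.519 to 0.839 of the others except for Col10a1, and 0.963, 1.38 and 0.943 for the mimic. In Cart-miR-23clus KO the 4 chains with a match to 1 of the clusters' microRNAs spanned 0.466 (Col11a1) to 1.55 (Col10a1) and the 4 without spanned 0.620 (Col9a1) to 1.32 (Col9a2).

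Annotated neighbours set limits on a few values. The 3′ end of Col9a3 on chromosome 2 (180597790 to 180622189) shares 234 exon bases with Tcfl5 on the opposite strand, which had between 37 and 48 reads, and Col10a1 on chromosome 10 (34389981 to 34397085) lies inside Nt5dc1 on the opposite strand, with 18 shared exon bases and between 6 and 21 reads. Whether the counting used strand is not given in the sources used here, so reads of these pairs may be mixed. Mir455 lies within Col27a1 on chromosome 4 (63214004 to 63334991) on the same strand and had 0 reads in each library.

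Over the 4 libraries, the genes whose log2 levels followed Col2a1 most closely, among 4721 genes averaging 20 TPM or more, were Tbpl1, Nedd9, an unnamed gene (ENSMUSG00000080776), Stk16 and Rps27, with a root mean square difference between 0.01 and 0.02. None of them is a collagen. The nearest chain to Col2a1 was Col27a1 at 0.13, followed by Col11a2 at 0.15 and Col9a3 at 0.16, and the farthest was Col9a2 at 0.57. Closest to Col10a1 were a gene listed as Ccl27b and Ccl27a, Eci2, Pmf1, H2afx and COX2, between 0.02 and 0.04. Each was on 71 reads or fewer in any library. COX2 here is ENSMUSG00000064354, a mitochondrial cytochrome c oxidase gene, and not the COX2 that the study measured as a protein. The nearest chain to Col10a1 was Col9a3 at 0.23. With 4 points from 1 library each, many genes can follow a chain this closely.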

How the data were processed

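RNA of cultured femoral head chondrocytes was measured in 4 libraries, 1 per condition, grouped by the labels. The authors prepared QuantSeq 3′ libraries, sequenced single-end reads of 75 bases without quality filtering, and mapped them to mm10; the aligner, counter and annotation are not given in the sources used here. The deposited TPM values were made by the authors from reads per gene, a single length per gene and a fixed sum, although 3′ reads do not scale with length. The deposited expected count of a gene is a whole number of reads, given for 3 libraries over 55450 genes. TPM covers 55141 genes. Reads of the mimic library were recovered from steps of its TPM: 14250 of 14250 values under 1000 reads were whole within 0.01, and 588 genes were not recovered. Their total is 1449246 reads.

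Ratios are of TPM and were called above 2 or below 0.5. Intervals are exact (Clopper-Pearson, 95%, SciPy 1.17.1) on reads, scaled as TPM; those of RPM (reads scaled to 1000000) are exact Poisson intervals. Medians use log2(TPM + 0.5) over genes averaging 1 TPM or more. A count of 0 allows up to 1.99 to 2.24 RPM (3 reads). Lengths behind TPM were inferred from 228 genes with 1 transcript (99.1% within 1%). UTRs and transcripts are from GENCODE M21 on GRCm38, microRNAs from RefSeq. Scales were also taken from edgeR 4.0.16 and DESeq2 1.42.0, without tests. Named are the 8 chains, Sox9, Sox5, Sox6, Acan and Col1a1, overlapping genes, the 5 genes most like Col2a1 and Col10a1, and up to 3 genes of each list and comparison past 2-fold with at least 20 reads. The chains and lists were chosen with earlier results of these data known.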

Additional observations from a re-analysis of the deposited data

How the results depend on the processing

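No paired analysis was possible because there was only 1 library to a condition. Taking RPM, edgeR TMM factors, DESeq2 size factors or a library total without bone matrix genes in place of TPM left 91 of 96 ratios of single chains within their 95% interval on TPM, and no ratio whose interval did not include 1 changed direction. The choice of reference library turned the median of the chains in Cart-miR-23clus KO: from -0.20 against wild type to 0.26 against miR-26a KO and 0.21 against the mimic library. At a fold of 1.5, 1 chain was above (18.6% of all genes) and 2 were below (18.3%) in Cart-miR-23clus KO, and 2 were below in miR-26a KO (16.3%). A floor of 20 reads in both libraries kept the counts of chains past 2-fold and lowered the shares of all genes past it to between 0.183% and 2.06%. Leaving Col1a1 out of the library total, the chains held 3.22% of reads in wild type, 2.43% in miR-26a KO and 2.49% with the mimic. For the mimic, at 99% the intervals of Col2a1 (0.995 to 1.04), Col10a1 (0.947 to 2.02) and Col11a1 (0.884 to 1.01) came to include 1, and Col11a1's did so on RPM, TMM and the total without bone genes, while with TMM that of Col9a3 came to lie above 1 (1.12, from 1.00 to 1.26). The length of the longest coding transcript, an alternative chosen after seeing the data, moved Col27a1 from place 4 to 6, Col9a3 from 5 to 4 and Col11a2 from 6 to 5 in wild type. Depth limits Col10a1 most, whose 82 to 148 reads left intervals wide enough to reach 2.01 in Cart-miR-23clus KO.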
